A study of Homo sapiens with 5 samples.

Results

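Windows of human chromosome 19, chosen as those that hold its large zinc finger gene clusters, were examined in the ChIP-seq peak lists of 3 nuclear targets, ASXL1, FOXK1 and O-GlcNAc. Members were the deposited peaks whose centre lay in either of 2 windows of the hg19 genome build. The first window runs from position 19900000 to 24500000 (4.6 Mb) and is called the 19p12 window here, and the second runs from 52000000 to 58900000 (6.9 Mb) and is called the 19q13.4 window. Together they held 921 of the 194759 peaks in the 3 lists. The 19p12 window held 79 ASXL1, 7 FOXK1 and 46 O-GlcNAc peaks, and the 19q13.4 window held 495, 46 and 248. The question asked of these data was how the windows differ from each other in peak density, in peak scores and in the overlap of the lists.

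Genes for KRAB zinc finger proteins lie in tandem arrays that grew by local duplication. The proteins join a row of C2H2 zinc fingers, which bind DNA, to a KRAB domain, which recruits the corepressor TRIM28, and many of them silence transposable elements. The array of 19p12 is known as a young, primate-expanded one, while 19q13.4 mixes older zinc finger genes with other gene families. ASXL1 joins BAP1 to form an enzyme that removes ubiquitin from histone H2A. FOXK1 is a forkhead transcription factor that binds BAP1 complexes. O-GlcNAc is a sugar that the enzyme OGT attaches to serine and threonine residues of nuclear proteins.

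ChIP-seq reads the DNA recovered with an antibody, and peaks are the places where its tags exceed those of an input control. The cells were Flp-In HEK293 T-REx, a human embryonic kidney line with a recombination site for transgenes and a tetracycline repressor, grown without a named treatment. All groups share that line, and each antibody had 1 library. Chromatin preparation 63 served for ASXL1 and for O-GlcNAc, and preparation 62 for FOXK1, each called against the input of its own preparation, so FOXK1 and its preparation cannot be told apart. Depth is unknown, and with no replicate library no p-value is given. The 95% intervals below cover counting error only, and peaks are not replicates. The score of a peak is the authors' own and was compared only within a list.

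The peaks were not assigned to genes, because the gene table used here is on GRCh38 and the peaks are on hg19. RefSeq (GRCh38.p14) was used only for names and gene order. It lists 1447 protein-coding genes on chromosome 19, of which 265 carry a zinc finger symbol, and 221 of these stand in 21 runs of 4 or more neighbours. The longest run has 27 genes, from ZNF737 to ZNF681, and holds the 19p12 genes ZNF43, ZNF91 and ZNF208. A run of 23 genes from ZNF772 to ZNF256 belongs to 19q13.4, as do shorter runs from ZNF577 to ZNF836 and from ZNF766 to ZNF83. Other long runs, such as ZNF627 to ZNF791 and ZNF565 to ZNF793 with 24 genes each, belong to neither cluster, so the rest of chromosome 19 is not free of zinc finger genes. Whether the windows match the gene clusters in hg19, and whether a given peak lies at a zinc finger gene, was not tested.

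All 3 lists were sparser in the 19p12 window. ASXL1 peaks stood at 17.2 per Mb (95% Poisson interval 13.6 to 21.4) in 19p12 and at 71.7 per Mb (65.6 to 78.3) in 19q13.4, a ratio of 4.18 (exact interval 3.29 to 5.37). FOXK1 peaks stood at 1.52 per Mb (0.61 to 3.14) and 6.67 per Mb (4.88 to 8.89), a ratio of 4.38 (1.96 to 11.5). O-GlcNAc peaks stood at 10.0 per Mb (7.32 to 13.3) and 35.9 per Mb (31.6 to 40.7), a ratio of 3.59 (2.62 to 5.04). The density ratio of the windows thus lay near 4 in each list, and the 3 intervals overlapped. When each list was cut to its 10000 best scores the O-GlcNAc ratio was 7.21, and the FOXK1 ratio was 7.53 (2.38 to 38.2) in windows narrowed by 500 kb at either end and up to 6.83 with 1 stretch of 500 kb left out. Of its 7 peaks in 19p12, 3 lay in the first 500 kb and 1 in the last, and narrowing left 3.

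Against the rest of the genome the windows lay on different sides for ASXL1 and O-GlcNAc. The 19p12 window was 0.555 times as dense in ASXL1 peaks as chromosomes 1 to 22 and X outside the windows (0.439 to 0.692), 0.386 times as dense in O-GlcNAc (0.282 to 0.514) and 0.215 times as dense in FOXK1 (0.0863 to 0.442). The 19q13.4 window was 2.32 times as dense in ASXL1 (2.12 to 2.53) and 1.39 times in O-GlcNAc (1.22 to 1.57). For FOXK1 its ratio was 0.941 with an interval that held 1 (0.688 to 1.26). Compared with the rest of chromosome 19, 19q13.4 had 0.905 times the density in the ASXL1 list (0.822 to 0.994). The ratio was 0.790 in the O-GlcNAc list (0.690 to 0.902) and 0.662 in the FOXK1 list (0.478 to 0.898). These intervals treat peaks as independent, but peaks were clumped. In bins of 100 kb of 19q13.4, the variance of ASXL1 counts was 7.82 times their mean. It was 2.26 times in the O-GlcNAc list and 1.35 times in the FOXK1 list. The ASXL1 interval therefore cannot settle whether 19q13.4 was sparser, and these ratios were not recomputed under other settings.

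**Figure D1:**
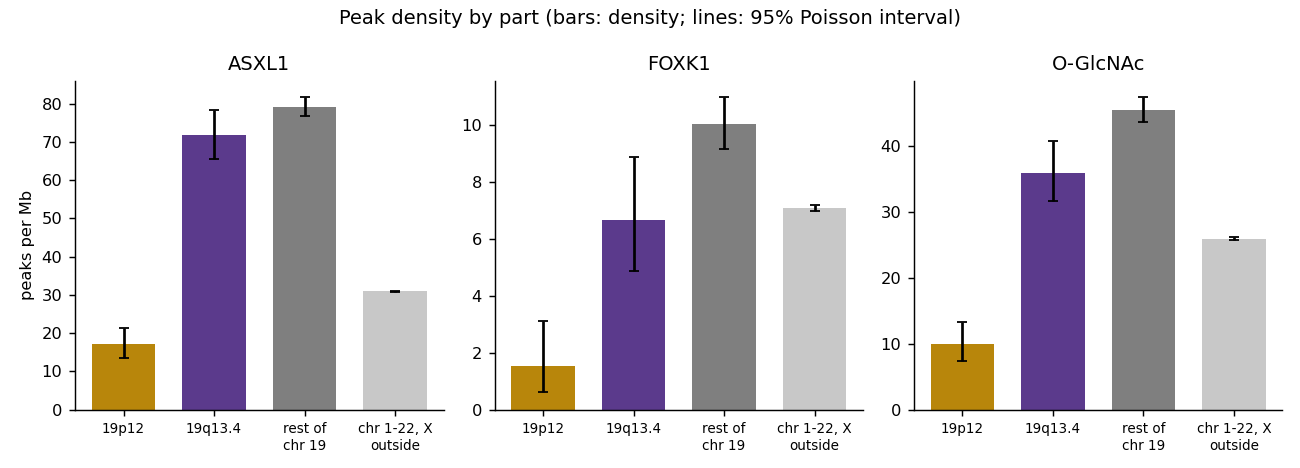
Peaks per Mb of each list (vertical axis, 1 panel per list) in the 19p12 window, the 19q13.4 window, the rest of chromosome 19 and chromosomes 1 to 22 and X outside the windows. Bars are densities and lines are 95% Poisson intervals; in each panel the 19p12 bar is the lowest (ASXL1 17.2, FOXK1 1.52, O-GlcNAc 10.0 per Mb).

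The same order appeared when the genome was tiled with windows of equal length. Of 649 windows of 4.6 Mb, 30.2% held fewer ASXL1 peaks than 19p12, 13.7% fewer O-GlcNAc peaks and 10.0% fewer FOXK1 peaks. Of 429 windows of 6.9 Mb, 96.5% held fewer ASXL1 peaks than 19q13.4, 74.8% fewer O-GlcNAc peaks and 52.4% fewer FOXK1 peaks. The 19q13.4 window was therefore among the ASXL1-rich windows of this list and near the middle of the FOXK1 list. Assembly gaps were not avoided, and 25 to 27 of the shorter windows held no peak of a list.

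Peaks were uneven along both windows. In 19p12, bins of 100 kb held at most 9 ASXL1 peaks, at positions 23400001 to 23500000 and 24200001 to 24300000, and 10 of 46 bins held no peak of any list. The stretch from 20400001 to 20900000 held 1 peak of each list. In 19q13.4 only 3 of 69 bins were empty, and the ASXL1 maximum was 36 peaks at 54600001 to 54700000, where 22 scored at least 100. The same bin had the FOXK1 maximum of 4 peaks, all in regions held by all 3 lists. The O-GlcNAc maximum of 13 peaks lay at 56100001 to 56200000, beside 30 ASXL1 and 3 FOXK1 peaks.

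A stretch inside 19q13.4 was nearly bare. Between 55000001 and 55500000 there were 1 ASXL1, 2 FOXK1 and 4 O-GlcNAc peaks and no region held by all 3 lists. The 500 kb before it held 63, 7 and 19 peaks in the same order, and the 500 kb after it held 69, 5 and 37. Across the 100 kb bins of 19q13.4, ASXL1 and O-GlcNAc counts rose together (Spearman's rho 0.732 over 69 bins), and in 19p12 rho was 0.589 over 46 bins. These are descriptions across bins of 2 libraries that share a preparation and an input.

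**Figure D2:**
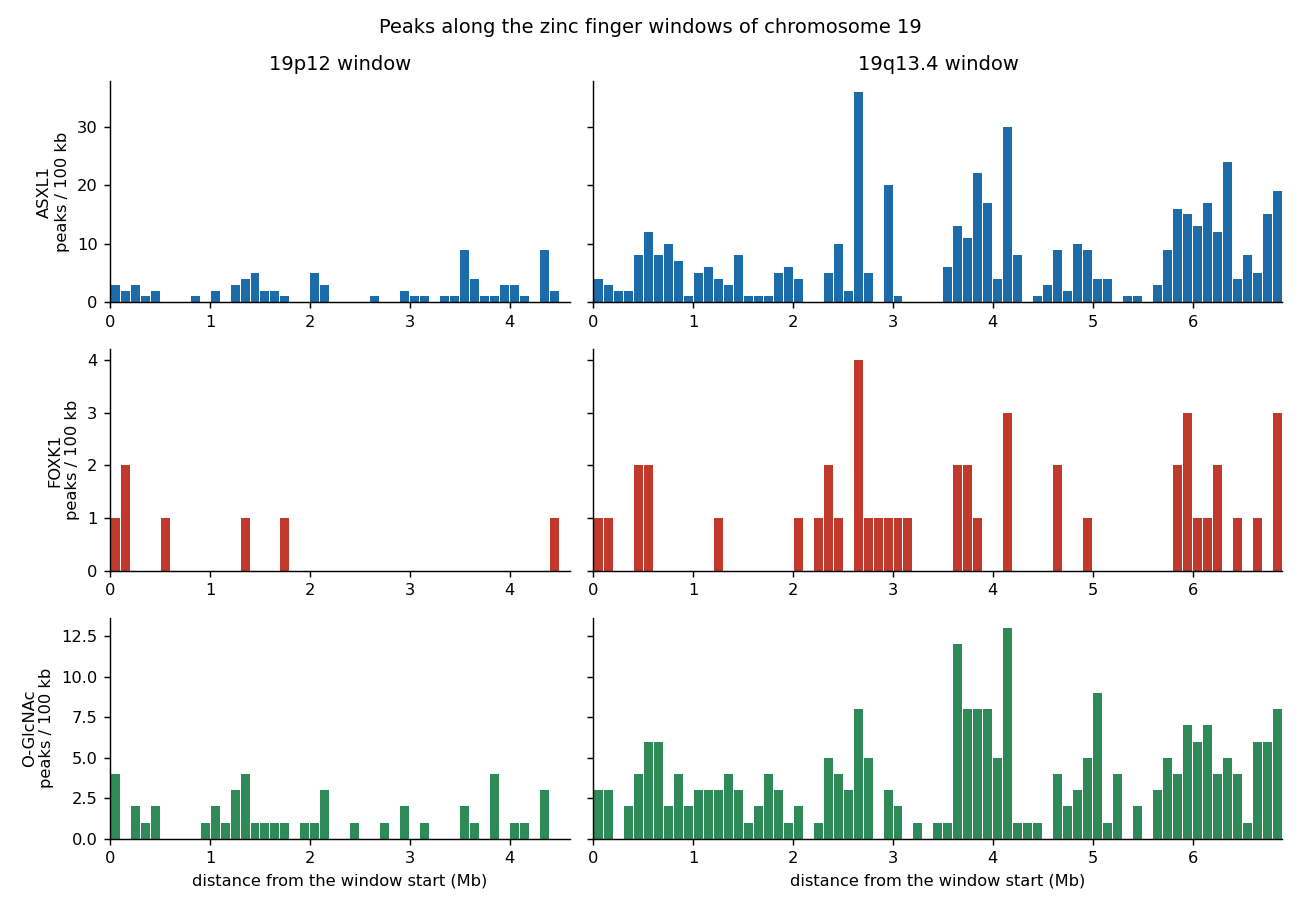
Peaks per 100 kb (vertical axis, 1 row per list) against the distance from the start of the 19p12 window (left, 46 bins) and of the 19q13.4 window (right, 69 bins), in Mb. ASXL1 reaches 9 peaks in a bin in 19p12 and 36 in 19q13.4, and a nearly bare stretch of 500 kb begins 3 Mb into the 19q13.4 window.

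O-GlcNAc scores were higher in 19q13.4 than in 19p12. The median O-GlcNAc score was 67.4 in 19p12 (95% interval of the median 59.8 to 112) and 140 in 19q13.4 (100 to 190), against 85.1 on the rest of chromosome 19 (81.0 to 90.5). Of the whole O-GlcNAc list 21.2% scored at least 100, against 39.1% of its 19p12 peaks (Wilson interval 26.4 to 53.5) and 56.5% of its 19q13.4 peaks (50.2 to 62.5). The difference between the windows was 17.3 percentage points (Newcombe interval 1.62 to 31.4). The highest O-GlcNAc score was 353.04 in 19p12 and 3100 in 19q13.4, where 91 of 248 peaks exceeded 353.04, as did 5.41% of the whole list.

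The upper end of the O-GlcNAc list was where 19q13.4 stood out. By construction 10.0% of a list lies among its highest-scoring 10%, and 110 of the 248 O-GlcNAc peaks of 19q13.4 did (44.4%, interval 38.3 to 50.6). The share was 28.1% on the rest of chromosome 19 (26.3 to 30.1), a difference of 16.2 points (9.87 to 22.7). In 19p12 it was 21.7% (12.3 to 35.6), which is 22.6 points below 19q13.4 (7.52 to 33.95).

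ASXL1 scores did not differ between the windows beyond counting error. The median was 81.6 in 19p12 (66.5 to 124) and 85.6 in 19q13.4 (81.1 to 91.8). Of the whole ASXL1 list 33.0% scored at least 100, against 41.8% in 19p12 (31.5 to 52.8) and 42.8% in 19q13.4 (38.5 to 47.2). The difference was 1.06 points with an interval from -10.8 to 12.2, so a gap of that size in either direction is within counting error. A 19p12 peak outscored a 19q13.4 peak in 48.4% of pairs for ASXL1, in 31.7% for O-GlcNAc and in 18.9% for FOXK1.

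FOXK1 peaks of 19p12 all scored low. Their 7 scores were 76.92, 76.42, 58.81, 57.35, 55.59, 53.39 and 50.82, so none reached 100, and the best ranked at 48.9% from the top of its list. In 19q13.4 the 46 FOXK1 scores ran from 50.4 to 463 with a median of 81.6 (71.5 to 135), and 19 reached 100 (41.3%, 28.3 to 55.7), against 33.9% of the whole list. The windows differed by 41.3 points in the share at 100 or above (3.56 to 55.7). Of the 46 scores of 19q13.4, 28 exceeded the highest of the 7 in 19p12, as did 48.9% of the whole list.

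**Figure D3:**
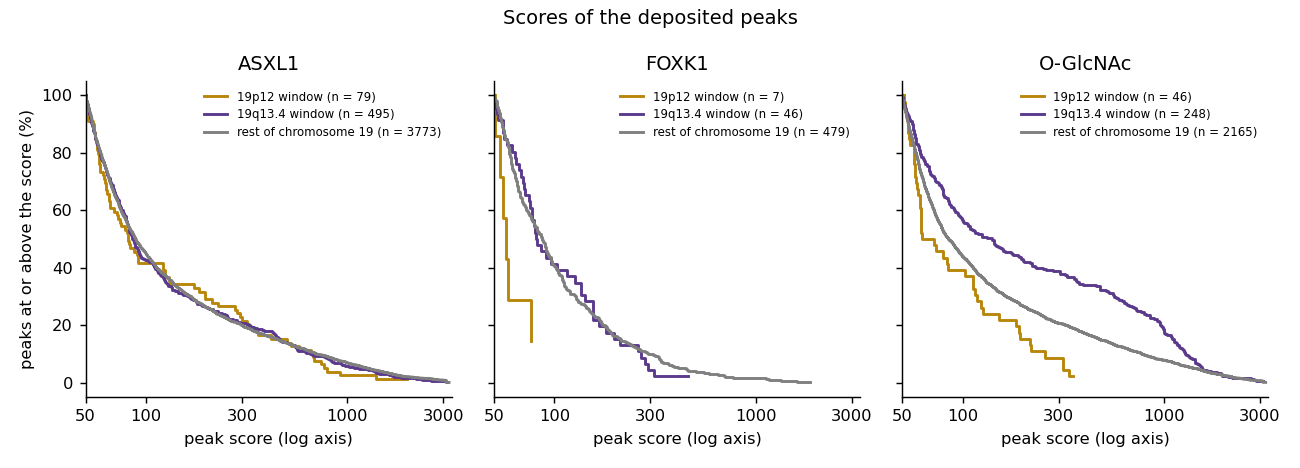
Share of peaks at or above a score (vertical axis, percent) against the score (log axis) for each list, with lines for the 19p12 window, the 19q13.4 window and the rest of chromosome 19. The 3 ASXL1 lines run close together, while the O-GlcNAc line of 19q13.4 lies highest and that of 19p12 ends at 353.04.

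The strongest single places of the windows were as follows. In 19p12 the highest ASXL1 scores lay at 20958889 to 20959315 (score 1981.18), 21264731 to 21265333 (1389.09) and 24269720 to 24270204 (921.22). Each overlapped an O-GlcNAc peak, and the peak at 21264731 also overlapped a FOXK1 peak. The highest O-GlcNAc scores of 19p12 lay at 20162757 to 20163227 (353.04), 20958871 to 20959220 (337.53) and 23433026 to 23433581 (315.88), each with an ASXL1 partner. So all 6 of these peaks lay where both targets of preparation 63 were called. The FOXK1 peaks with the highest scores lay at 20478816 to 20479054 (76.92), 21264572 to 21265297 (76.42) and 19963388 to 19963718 (58.81), and the first and last of these overlapped no other list.

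In 19q13.4 the ASXL1 order began at 57831559 to 57832173 (score 3120.51, with O-GlcNAc), 55908890 to 55914181 (3100) and 57790706 to 57792278 (2827.55, with O-GlcNAc). The peak at 55908890 was 5292 bp wide, the widest ASXL1 member, and overlapped neither other list. O-GlcNAc began at 54618271 to 54619387 (3100, with ASXL1 and FOXK1), 55690018 to 55690942 (2850.83) and 55831156 to 55831502 (2813.62, with ASXL1). The O-GlcNAc peak at 55690018 had no partner. The next O-GlcNAc peaks without a partner lay at 54682123 to 54682694 (1418.82) and 55708895 to 55709242 (1231.92), and the next such ASXL1 peak at 53445643 to 53446171 (1021.74). FOXK1 began at 57874260 to 57875175 (463.49), 58038404 to 58039006 (312.4) and 52489902 to 52490415 (291.14), and each of these overlapped both other lists.

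Counted from ASXL1, the overlap with O-GlcNAc did not differ between the windows beyond counting error. Of 79 ASXL1 peaks in 19p12, 26 overlapped an O-GlcNAc peak by at least 1 bp (32.9%, interval 23.6 to 43.9), and of 495 in 19q13.4, 163 did (32.9%, 28.9 to 37.2). The share over the whole ASXL1 list was 22.4%, and on the rest of chromosome 19 it was 29.0% (27.6 to 30.5). The difference between the windows was 0.018 points (-11.6 to 10.3), which still allows a gap of about 10 points. With both lists limited to scores of at least 100 the shares were 48.5% and 54.2%. Among the 10000 best scores per list they were 61.5% and 79.5%, with a difference of 18.0 points (-4.85 to 45.0). Whole-list shares were not computed for the cut lists, so these values cannot be set against the 22.4%. Counted from O-GlcNAc, 23 of 46 peaks in 19p12 (50%, 36.1 to 63.9) and 149 of 248 in 19q13.4 (60.1%, 53.9 to 66.0) overlapped ASXL1. The share was 27.1% over the whole list and 51.2% (49.1 to 53.3) on the rest of chromosome 19, close to that of 19p12. With either other list as partner the whole-list share was 29.9%, and in both windows every O-GlcNAc peak with a partner had ASXL1. The windows differed by 10.1 points in the ASXL1 share, with an interval that held 0 (-5.12 to 25.2).

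The shares were also taken by score class. Among O-GlcNAc peaks with a score of at least 100, 15 of 18 in 19p12 (83.3%, 60.8 to 94.2) and 121 of 140 in 19q13.4 (86.4%, 79.8 to 91.1) overlapped ASXL1, against 81.9% on the rest of the chromosome and 73.7% over the whole list. Below 100 the shares were 28.6% (15.3 to 47.1) and 25.9% (18.6 to 34.9), against 27.2% and 14.6%. When the ASXL1 list was also limited to scores of at least 100, the shares were 83.3% and 77.9%, with no whole-list share computed. Among the 10000 best scores per list the difference was -16.4 points, so its sign depended on the setting. From the ASXL1 side, 24 of 33 peaks with a score of at least 100 in 19p12 (72.7%, 55.8 to 84.9) and 133 of 212 in 19q13.4 (62.7%, 56.1 to 68.96) overlapped O-GlcNAc, against 52.3% on the rest of chromosome 19 and 50.6% over the whole list. These shares were 20.5 points (3.34 to 32.9) and 10.5 points (3.37 to 17.1) above the rest of the chromosome, and the windows differed by -9.99 points (-23.9 to 8.06). Below 100 the shares were 4.35% and 10.6%, against 10.0% on the rest.

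FOXK1 overlap differed between the windows. In 19q13.4, 39 of 46 FOXK1 peaks overlapped ASXL1 (84.8%, 71.8 to 92.4), and 39 overlapped O-GlcNAc (84.8%, 71.8 to 92.4), against 42.3% and 37.8% of the whole list. In 19p12, 2 of 7 overlapped ASXL1 (28.6%, 8.22 to 64.1) and 1 of 7 overlapped O-GlcNAc (14.3%, 2.57 to 51.3). The differences between the windows were 56.2 points for ASXL1 (18.4 to 77.9) and 70.5 points for O-GlcNAc (31.3 to 84.5), and rest on 7 peaks in 19p12.

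FOXK1 partners in 19q13.4 came together or not at all. All 39 of those peaks overlapped both other lists, 7 overlapped neither, and none overlapped only ASXL1 or only O-GlcNAc (0 of 46 in either class, Wilson interval up to 7.71%). Over the whole FOXK1 list 28.8% of peaks overlapped both lists, 13.5% ASXL1 alone and 8.98% O-GlcNAc alone. On the rest of chromosome 19 the shares were 51.1% with both (46.7 to 55.6), 7.31% with ASXL1 alone (5.30 to 9.99), 9.39% with O-GlcNAc alone (7.10 to 12.3) and 32.2% with neither (28.1 to 36.5). The share with both was 33.6 points higher in 19q13.4 than there (19.9 to 42.5). Among the 10000 best scores per list, the share with both in 19q13.4 was 50% of 24 peaks. That cut keeps a larger part of the 21697 FOXK1 peaks than of the 94237 ASXL1 and 78825 O-GlcNAc peaks. The whole-list share under it was not computed, so the 50% has no like background here.

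FOXK1 peaks of low score in 19q13.4 also had both partners in most cases. Below a score of 100, 22 of 27 FOXK1 peaks had both partners (81.5%, 63.3 to 91.8), against 17.9% of the whole list in that class and 35.8% on the rest of chromosome 19 (30.4 to 41.5), a difference from the latter of 45.7 points (26.6 to 57.3). At 100 or above the share was 89.5% of 19 peaks (68.6 to 97.1) against 50.02% of the whole list and 73.7% on the rest of the chromosome (67.1 to 79.4), and the latter difference of 15.8 points had an interval from -5.87 to 25.8. The peaks with both partners had a median width of 753 bp and the 7 without partners one of 359 bp. Of those 7, which scored from 50.9 to 213, the first 3 by score lay at 55185567 to 55185837 (212.67), 54345276 to 54345749 (142.21) and 55028727 to 55028999 (90.56). The first and the last of these lay in the nearly bare stretch.

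**Figure D4:**
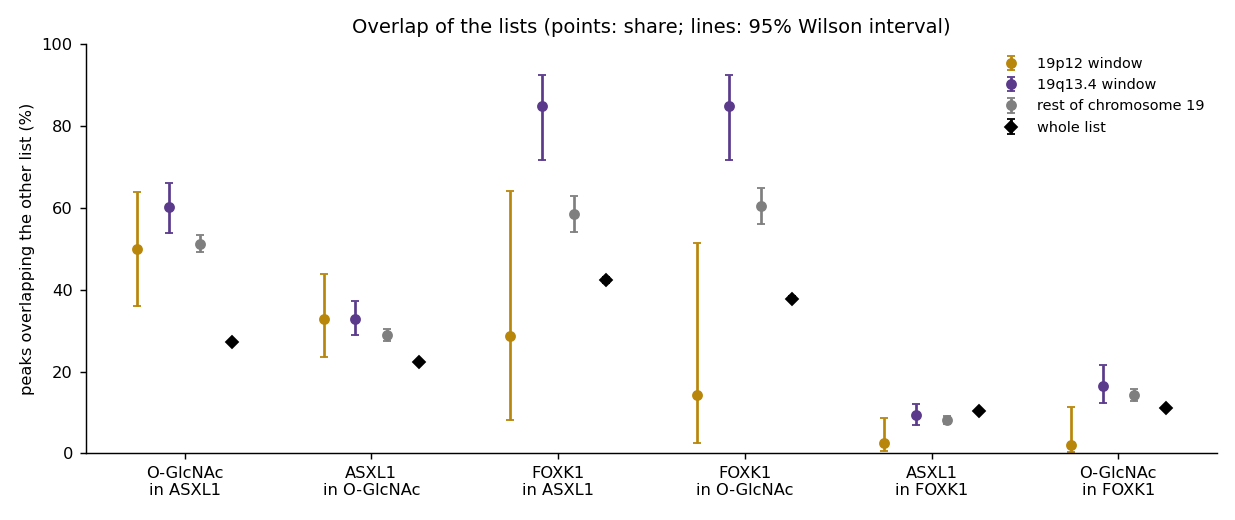
Share of the peaks of a list that overlap another list by at least 1 bp (vertical axis, percent) for the 6 ordered pairs of lists, in the 19p12 window, the 19q13.4 window, the rest of chromosome 19 and the whole list. Points are shares and lines are 95% Wilson intervals; ASXL1 in O-GlcNAc is 32.9% in both windows, and FOXK1 in either other list is 84.8% in 19q13.4.

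Seen from the longer lists, FOXK1 partners were fewer in 19p12 than in 19q13.4. FOXK1 met 2 of 79 ASXL1 peaks in 19p12 (2.53%, 0.70 to 8.77) and 46 of 495 in 19q13.4 (9.29%, 7.04 to 12.2), against 10.5% of the whole list. It met 1 of 46 O-GlcNAc peaks in 19p12 (2.17%, 0.38 to 11.3) and 41 of 248 in 19q13.4 (16.5%, 12.4 to 21.7), against 11.1% of the whole list. The windows differed by 6.76 points for ASXL1 (0.130 to 10.2) and by 14.4 points for O-GlcNAc (4.32 to 19.8). Both intervals held 0 when only scores of at least 100 were used, among the 10000 best scores per list and in windows narrowed by 500 kb at either end. The ASXL1 interval also held 0 without the widest 1% of peaks and with overlap taken as centres within 500 bp. In 19q13.4 all 41 of these O-GlcNAc peaks also overlapped ASXL1 (Wilson interval from 91.4%). That share was 84.47% on the rest of chromosome 19 and 75.04% over the whole list. Of the 99 O-GlcNAc peaks of 19q13.4 without ASXL1, 0 met FOXK1 (Wilson interval up to 3.74%). The share was low elsewhere too, at 4.54% on the rest of chromosome 19 (3.44 to 5.97) and 3.81% over the whole list.

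Merging overlapping peaks gave 104 regions in 19p12 and 577 in 19q13.4. In 19p12, 52 regions held ASXL1 alone, 23 O-GlcNAc alone and 5 FOXK1 alone, 22 held ASXL1 and O-GlcNAc, 1 held ASXL1 and FOXK1, and 1 held all 3 lists. In 19q13.4 the numbers were 331, 99 and 7 for the single lists, 101 for ASXL1 and O-GlcNAc and 39 for all 3 lists. Regions of 2 or 3 lists made up 23.1% in 19p12 (16.0 to 32.0) and 24.3% in 19q13.4 (20.9 to 27.9), against 15.3% over the whole series. Regions of all 3 lists made up 0.962% (0.170 to 5.25) and 6.76% (4.98 to 9.11), against 3.90% over the whole series.

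Places with both ASXL1 and O-GlcNAc, with or without FOXK1, numbered 23 in 19p12 and 140 in 19q13.4. Their median spacing was 120 kb in 19p12 and 25.3 kb in 19q13.4. FOXK1 was present at 1 of 23 (4.35%, 0.772 to 21.0) and at 39 of 140 (27.9%, 21.1 to 35.8), against 31.5% over the whole series and 23.8% on the rest of chromosome 19 (21.3 to 26.5). The windows differed by 23.5 points (5.55 to 32.2), while 19q13.4 and the rest of the chromosome differed by 4.08 points (-3.20 to 12.4). In these lists the lower FOXK1 share was that of 19p12, 19.4 points below the rest of the chromosome (interval of the difference -23.9 to -2.60). It rests on 1 of 23 regions. In windows narrowed by 500 kb at either end the shares were 6.25% in 19p12 and 26.05% in 19q13.4, with overlapping intervals. At scores of at least 100, 19p12 held 0 regions of all 3 lists beside 15 of ASXL1 and O-GlcNAc alone. In 19q13.4 these numbers were 17 and 88. The difference was not computed under either setting.

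At these joint places the windows had similar ASXL1 scores but different O-GlcNAc scores. The median ASXL1 score was 501 in 19p12 (284 to 681) and 446 in 19q13.4 (364 to 550). The median O-GlcNAc score was 123 in 19p12 (80.2 to 217), 528 in 19q13.4 (331 to 708) and 192 on the rest of chromosome 19 (173 to 212). The intervals of the O-GlcNAc medians of the windows did not overlap, and those of the ASXL1 medians did. Where the ASXL1 score lay from 100 to 200, the 4 regions of 19p12 had O-GlcNAc scores from 57.7 to 353 with a median of 91.3, and the median of 17 regions of 19q13.4 was 153 (68.2 to 985). Where it lay from 200 to 400, the O-GlcNAc median was 73.4 over 7 regions of 19p12 (51.1 to 217) and 398 over 27 regions of 19q13.4 (174 to 708). In the next class, from 400 up to 800, it was 151 over 9 regions (83.8 to 316) and 794 over 41 regions (303 to 1087). Between windows the intervals overlapped in both of the latter classes. At 800 and above, the 3 regions of 19p12 ran from 191 to 338 with a median of 218, below the interval of the 19q13.4 median of 697 (461 to 1080 over 38 regions).

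Scores of the 2 targets followed each other only loosely within the joint places. Spearman's rho between ASXL1 and O-GlcNAc scores was 0.471 over 23 regions of 19p12 and 0.340 over 140 regions of 19q13.4, beside 0.568 over 1022 regions on the rest of the chromosome. The libraries share a preparation and an input, and regions are not replicates, so these are descriptions only.

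**Figure D5:**
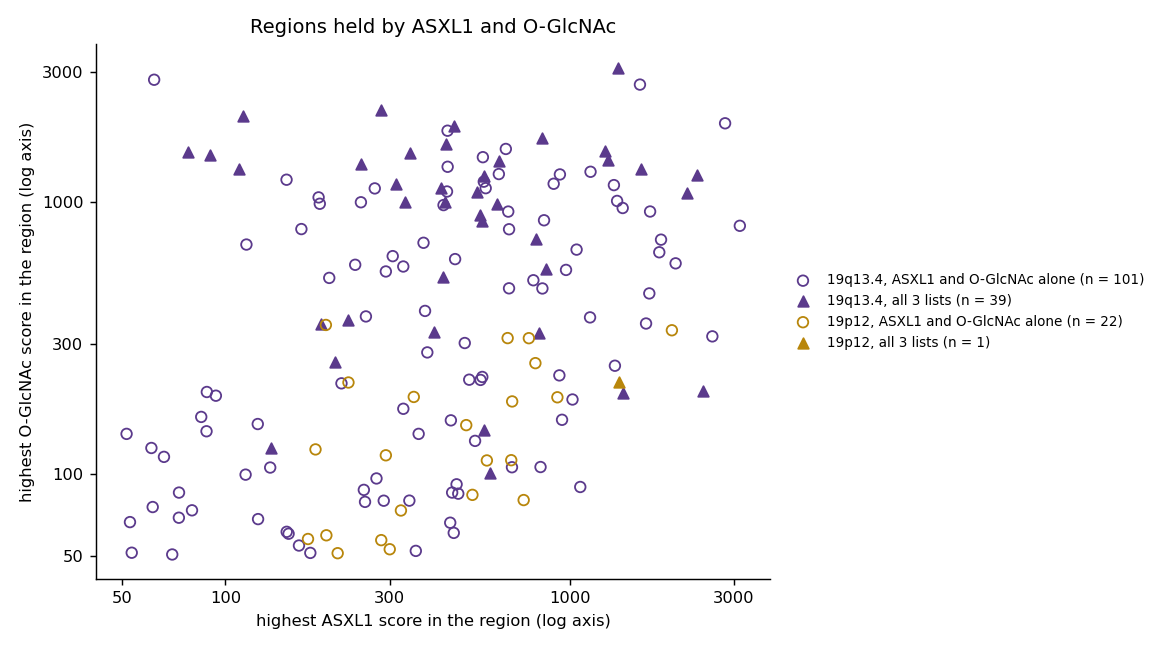
Highest O-GlcNAc score against highest ASXL1 score (both log axes) at each region that holds both lists; circles have no FOXK1 peak and triangles do. The 23 regions of 19p12 stay at or below an O-GlcNAc score of 353.04 over an ASXL1 range that reaches 1981.18, while those of 19q13.4 reach 3100.

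The only region of 19p12 held by all 3 lists lay at 21264572 to 21265333 (762 bp), where ASXL1 scored 1389.09, FOXK1 scored 76.42 and O-GlcNAc scored 218.3. The 5 regions of 19q13.4 with the best joint rank are given next. At 54617971 to 54619462 ASXL1 scored 1384.54, FOXK1 scored 180.48 and O-GlcNAc scored 3100. At 55849959 to 55851525 they were 2192.06, 282.17 and 1079.89. At 56145967 to 56146734 they were 1291.64, 155.51 and 1425.18. The first of these places had nearly the ASXL1 score of the 19p12 region, with higher FOXK1 and O-GlcNAc scores. At 54023583 to 54024596 the scores were 461.7, 197.33 and 1908.34, and at 55769889 to 55771213 they were 1609.05, 82.04 and 1324.01.

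The 39 regions of all 3 lists in 19q13.4 were set beside the 243 on the rest of chromosome 19. The median O-GlcNAc score was 1087 in 19q13.4 (730.2 to 1378) and 473 on the rest (403 to 610.2), and 21 of 39 (53.8%, 38.6 to 68.4) against 76 of 243 (31.3%, 25.8 to 37.4) reached 1000. The median ASXL1 scores were 537 (343 to 625) and 540.04 (429.6 to 660.2). The FOXK1 medians were 81.1 (71.5 to 136) and 112 (104 to 134). The intervals of the O-GlcNAc medians did not overlap, and those of the ASXL1 and FOXK1 medians did.

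ASXL1 and O-GlcNAc peaks without a partner had lower scores than those with one, as over the whole lists, where the medians were 67.6 and 211 for ASXL1 and 62.7 and 111 for O-GlcNAc. In 19p12, 52 of 79 ASXL1 peaks had none, with a median score of 63.4 against 324 for those with a partner. In 19q13.4, 331 of 495 had none, with medians of 71.8 and 413. The highest unshared ASXL1 scores of 19p12 were 415.98 at 21579679 to 21580156 and 357.98 at 23945679 to 23945979, and 8 of the 52 reached 100 (15.4%, 8.01 to 27.5). In 19q13.4, 79 of the 331 reached 100 (23.9%, 19.6 to 28.7), against 20.0% of the unshared peaks of the whole ASXL1 list. Unshared O-GlcNAc peaks had medians of 61.4 in 19p12 and 67.9 in 19q13.4, against 123 and 481 with a partner. For FOXK1 in 19q13.4 the medians were 85.9 for the 7 unshared peaks and 81.1 for the 39 shared ones, while a shared peak outscored an unshared one in 60.8% of pairs, so no order is read from them.

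The upper edge of 19q13.4 fell in a dense place, where the last 100 kb held 19 ASXL1, 3 FOXK1 and 8 O-GlcNAc peaks, while the last 100 kb of 19p12 held 0 of each. The nearest member inside the lower edge of 19p12 was an O-GlcNAc peak of score 61.4 at 4.23 kb and the nearest outside an ASXL1 peak of score 97.11 at 2.79 kb. At its upper edge these were FOXK1 peaks of score 50.82 at 177 kb inside and 351.78 at 26.2 kb outside. For 19q13.4 the peaks were FOXK1 of score 126.04 at 74.4 kb inside and O-GlcNAc of score 244.77 at 36.1 kb outside the lower edge. At the upper edge they were O-GlcNAc of score 1258.62 at 1.56 kb inside and ASXL1 of score 160.11 at 3.68 kb outside.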

How the data were processed

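Per the labels, fixation used 1% formaldehyde (10 min), and gel-cut fragments (250 to 350 bp) went through 18 cycles of PCR. The submitters' processing notes name Bowtie2 2.0.0, MACS 1.4 and hg19, without roles. The authors deposited 1 peak list per antibody, not pooled, with a score per peak of at least 50. How the score was computed, caller settings, read filters and depth are not given in the sources used here, and the inputs were not analysed here.

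Peaks were placed by their centre, with positions counted from 1, and overlap meant at least 1 bp. The end of the last peak stood for a chromosome's length. Python 3.11.15 and scipy 1.17.1 gave exact Poisson and conditional intervals, Wilson and Newcombe intervals, and order-statistic intervals of medians. The overlap and density functions were tested on simulated data. Named places were the 3 highest-scoring peaks per list and window and the 5 best-ranked regions of all 3 lists per window, plus the fullest 100 kb bins. The windows, lists and settings were chosen with earlier results of these data known. Joint regions by score class, FOXK1 partner classes, unshared peaks and the 500 kb stretch were added after the values were seen. Results that need genes or sequence of hg19, including the gene lists set for them, were not run.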

Additional observations from a re-analysis of the deposited data

How the results depend on the processing

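No paired analysis was possible because no group had a replicate, so none could be left out either. Of 283 recomputed values 239 stayed within counting error, or within 1.5 times for counts, and 44 moved. Score medians, and the scores and FOXK1 share of joint regions, were not recomputed with stricter lists. The tally therefore does not cover them there. No ratio crossed 1, and no overlap difference whose interval excluded 0 changed sign. Stricter lists, which hold fewer peaks, gave most of the moves, in counts and also in shares and ratios. Why the shares and ratios moved was not tested. At a score of at least 100, 19p12 and 19q13.4 held 33 and 212 ASXL1, 0 and 19 FOXK1, and 18 and 140 O-GlcNAc peaks. Among the 10000 best scores per list they held 13 and 88, 0 and 24, and 11 and 119. No FOXK1 density ratio could be formed in either case, and the O-GlcNAc ratio was 5.19 and 7.21. The share of O-GlcNAc peaks overlapping ASXL1 was 83.3% and 72.7% in 19p12 and, at a score of at least 100, 77.9% in 19q13.4, with window differences of -5.48 and -16.4 points. FOXK1 peaks of 19q13.4 overlapped ASXL1 in 58.3% and both lists in 50% of the 10000-peak lists. Whole-list shares were not computed under the stricter settings. Regions of all 3 lists numbered 0 in 19p12 under both settings, and 17 and 12 in 19q13.4, and regions of ASXL1 and O-GlcNAc alone numbered 8 and 55 with 10000 peaks. Windows narrowed by 500 kb at either end left 3 FOXK1 peaks in 19p12 and a FOXK1 ratio of 7.53. Merging peaks within 1 kb gave a median ASXL1 score of 93.2 in 19q13.4, and shares of ASXL1 peaks overlapping O-GlcNAc of 33.8% in 19p12 and 39.2% in 19q13.4. With each 500 kb bin left out in turn, chosen after seeing the data, the density ratio ran from 3.77 to 4.82 for ASXL1, 3.90 to 6.83 for FOXK1 and 3.27 to 4.21 for O-GlcNAc. Alternatives that need genes or sequence were not run. Unknown depth limits any comparison of peak numbers between lists, and the 7 FOXK1 peaks of 19p12 limit every share there.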

Other observations

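On the unlocalised contig 19_gl000208_random of hg19, which is in neither window, the FOXK1 list held 12 peaks with scores from 50.6 to 808 and the other lists held 0. On 19_gl000209_random the lists held 1 ASXL1 peak of score 65.13 and 1 O-GlcNAc peak of score 54.25, which did not overlap, and 0 FOXK1 peaks.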
